A study of Homo sapiens with 10 samples.

Results

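The secreted WNT antagonists are proteins that block WNT signalling outside the cell, and their 10 genes were DKK1, DKK2, DKK3, DKK4, SFRP1, SFRP2, SFRP4, SFRP5, FRZB and WIF1. They were taken by symbol from 27492 symbols in 3 tables of mRNA levels, and all 10 were found in each table. The cells were of H9, an established human embryonic stem cell (hESC) line of wild-type genotype, which carried a GFP reporter driven by LTR7, the promoter element of the retrovirus HERVH. Human extended pluripotent stem (hEPS) cells were kept in 10 mM crotonate for 12 days or left untreated. Primed hESCs were given the same crotonate treatment, turned into endodermal cells with BMP4 and Activin A in place of crotonate, or left untreated. Crotonate is a short-chain fatty acid that cells convert to crotonyl-CoA, the donor for crotonylation of proteins.

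The culture media themselves contained agents that act on the WNT pathway. The LCDM medium of the hEPS cells held CHIR99021, an inhibitor of GSK3 that activates WNT/beta-catenin signalling, and IWR-endo-1, a tankyrase inhibitor that stabilizes AXIN and dampens it. The endodermal cells were cultured in a different medium from the primed hESCs and received CHIR99021 in the opening days only. The methods list no such agent for the mTeSR medium of the primed hESCs, but they do not give the composition of that medium. The hEPS cells were grown on mouse feeder cells and separated from them by adherence, and reads of mouse origin were not examined here.

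The labels list 2 samples in each group, but the tables hold 1 value per gene and group, in FPKM (fragments scaled to gene length and to the size of the library). The sources used here do not say how 2 samples became 1 value. An SD, a test or a p-value is thus out of reach, and each change below is a difference between 2 values with no replicate check. The hEPS columns held 26731 genes and summed to 596397 FPKM with crotonate and 610417 FPKM without. The primed and endodermal columns held 19198 genes and summed to between 369750 and 373248 FPKM. Between 12048 and 13635 genes reached 1 FPKM in a column. The tables state no read totals. Of the genes below 0.2 FPKM in a pair of columns, between 81.3% and 91.4% lay on common steps of 1 to 12 whole reads, within 0.001 reads, which gave the reads behind some low values. Such reads are the smallest whole numbers that the values allow, and the true numbers can be a common multiple of them.

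Marker genes matched the labels in part. Of 8 pluripotency markers, 8 reached 1 FPKM in untreated primed hESCs, 8 in both hEPS groups, 4 in crotonate-treated primed hESCs and 4 in endodermal cells. Their summed level was 2333 FPKM in untreated primed hESCs, 177 FPKM in crotonate-treated primed hESCs and 112 FPKM in endodermal cells. In hEPS cells it was 992 FPKM with crotonate and 1507 FPKM without. Of 8 definitive endoderm markers, 8 reached 1 FPKM in crotonate-treated hEPS cells, 7 in untreated hEPS cells, 6 in crotonate-treated primed hESCs, 2 in endodermal cells and 2 in untreated primed hESCs. SOX17 and FOXA2, which define definitive endoderm, were 0.0721 FPKM and listed at 0 in endodermal cells. The 2 markers that reached 1 FPKM there were CXCR4 at 34.7 FPKM and GATA6 at 3.40 FPKM. In untreated primed hESCs CXCR4 was at 2.08 FPKM and GATA6 at 0.0161 FPKM. The summed level of the 8 markers was 38.8 FPKM in endodermal cells and 4.16 FPKM in untreated primed hESCs. In endodermal cells 8 of 9 lateral plate and cardiac mesoderm markers were at 1 FPKM or more (summed level 510 FPKM). So were 8 in crotonate-treated primed hESCs (836 FPKM), 2 in each hEPS group (102 FPKM with crotonate and 23.6 FPKM without) and 0 in untreated primed hESCs (0.721 FPKM). Most of both hEPS sums was GATA4, also a factor of endoderm, at 97.8 FPKM with crotonate and 20.9 FPKM without. HAND2, TBX4, TBX5, TBX20, FOXF1 and ISL1 stayed below 1 FPKM in both hEPS groups. Of 9 genes of mesenchyme and matrix, 7 reached 1 FPKM in crotonate-treated and 6 in untreated hEPS cells, and 8 in crotonate-treated primed hESCs, 8 in endodermal cells and 4 in untreated primed hESCs. The levels of these genes summed to 551 FPKM in crotonate-treated and 315 FPKM in untreated hEPS cells. The sum was 3989 FPKM in crotonate-treated primed hESCs, 4711 FPKM in endodermal cells and 116 FPKM in untreated primed hESCs. Of 7 neuroectoderm markers, 6 reached 1 FPKM in each hEPS group (summed level 237 FPKM with crotonate and 191 FPKM without), 3 in crotonate-treated primed hESCs (10.7 FPKM), 0 in endodermal cells (1.85 FPKM) and 4 in untreated primed hESCs (138 FPKM). OTX2 (139 FPKM with crotonate, 76.8 FPKM without) and ZIC2 (81.8 and 93.3 FPKM) made up most of both hEPS sums. In untreated primed hESCs ZIC2 was at 84.0 FPKM, OTX2 at 20.1 FPKM, POU3F1 at 19.2 FPKM and SOX3 at 14.4 FPKM. PAX6 was at 0.191 FPKM there and SOX1 was listed at 0, so that sum does not rest on these genes. The name endodermal is kept here as the study's label. The part of cell composition in the changes below was not tested, and in bulk RNA a change in the share of a cell type and a change of RNA per cell cannot be told apart.

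WNT ligands signal by joining a Frizzled receptor to the coreceptor LRP5 or LRP6, which stops the breakdown of beta-catenin. DKK1, DKK2 and DKK4 bind LRP5/6 from outside and act with the KREMEN proteins, whereas DKK3 is a divergent member whose relation to LRP5/6 is less clear. The SFRP proteins and FRZB (also called SFRP3) carry a cysteine-rich domain like that of Frizzled receptors and bind WNT ligands, and WIF1 binds them through a WIF domain. In vertebrate embryos, high WNT activity marks the primitive streak and the posterior body, and DKK1 limits it at the anterior end. DKK1 and DKK4 are also targets of beta-catenin, so that their mRNA can follow WNT activity as well as oppose it.

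The 250 bases before the RefSeq start (GRCh38.p14) are given for DKK1 and SFRP2, the members with the largest rise and the largest fall in primed hESCs, and for FRZB, the SFRP relative that rose there. They read 5′ to 3′ on the gene's strand, from chr10:52314031-52314280 (plus strand) for DKK1, chr4:153789084-153789333 (minus strand) for SFRP2 and chr2:182866638-182866887 (minus strand) for FRZB. Capitals mark matches, on either strand, to 5 motifs that were searched, namely CTTTGAT of TCF/LEF factors, AGATAA of GATA factors, ACAAAG of SOX factors, the TATA box TATAAA and the GC box GGGCGG.
DKK1: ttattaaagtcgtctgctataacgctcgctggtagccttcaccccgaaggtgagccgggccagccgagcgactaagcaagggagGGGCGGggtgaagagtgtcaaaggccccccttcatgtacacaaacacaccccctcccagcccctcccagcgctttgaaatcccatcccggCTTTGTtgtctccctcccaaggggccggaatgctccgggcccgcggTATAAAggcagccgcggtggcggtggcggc
SFRP2: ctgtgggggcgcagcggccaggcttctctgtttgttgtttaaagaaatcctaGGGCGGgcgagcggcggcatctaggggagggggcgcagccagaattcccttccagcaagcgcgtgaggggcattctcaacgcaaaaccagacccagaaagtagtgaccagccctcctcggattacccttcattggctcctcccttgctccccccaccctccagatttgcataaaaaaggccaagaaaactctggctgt
FRZB: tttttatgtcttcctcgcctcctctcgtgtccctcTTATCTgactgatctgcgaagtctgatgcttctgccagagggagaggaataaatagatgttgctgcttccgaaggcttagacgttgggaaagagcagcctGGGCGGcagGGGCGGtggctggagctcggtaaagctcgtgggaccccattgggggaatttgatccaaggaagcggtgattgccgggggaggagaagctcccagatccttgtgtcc

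The DKK1 window held a TATA box with 24 bases between it and the start, a SOX motif with 70 bases and a GC box with 160 bases. The FRZB window held a GATA motif with 209 bases to the start and 2 GC boxes, and the SFRP2 window a GC box with 192 bases. Of 35116 promoter windows of this length, 10.7% held the TATA box, 13.7% the SOX motif, 9.17% the GATA motif, 42.6% the GC box and 2.26% the TCF/LEF motif. No motif match overlapped another in these 3 windows. Of the 10 genes, 6 were matched in the RefSeq promoter table, and the exact letters CTTTGAT were in none of these 6 windows. Other forms of the TCF/LEF motif were not searched, so sites of these factors can be present in the windows. CpG dinucleotides numbered 18 in DKK1, 11 in SFRP2, 17 in SFRP4, 21 in SFRP5, 11 in FRZB and 27 in WIF1, against a median of 11 over all windows. These matches describe sequence only, and no binding was measured.

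The genes lie apart on 7 chromosomes (hg38, GENCODE 44). DKK1 is on chromosome 10 from 52314281 to 52318042 and SFRP5 on the same chromosome from 97766751 to 97771999. DKK2 (106921802 to 107283806) and SFRP2 (153780591 to 153789083) are on chromosome 4, and DKK4 (42374063 to 42377229) and SFRP1 (41261962 to 41309473) on chromosome 8. DKK3 is on chromosome 11 (11956207 to 12009769), SFRP4 on chromosome 7 (37905932 to 38025695), FRZB on chromosome 2 (182833275 to 182866637) and WIF1 on chromosome 12 (65050626 to 65121305).

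In primed hESCs crotonate was accompanied by an exchange among the antagonists. SFRP1 and SFRP2, which made up 96.4% of the summed level of the 10 genes in untreated hESCs, fell, and DKK1, which was near 0, rose to be the most abundant member. A gene was called higher or lower where the difference of log2(FPKM + 1) was at least 2-fold and 1 value reached 1 FPKM, and "rose" and "fell" are used of called genes alone. By this rule DKK1, DKK2 and FRZB were called higher, SFRP1, SFRP2 and SFRP5 lower, and DKK3 and WIF1 neither. DKK4 and SFRP4 stayed below 1 FPKM. Over all 13210 genes that reached 1 FPKM, 13.9% were called higher and 12.7% lower. The filter was passed by 8 members, of which DKK1 and DKK2 passed through the crotonate value alone and SFRP5 through the untreated value alone, so that these 3 could differ in 1 direction only. The median log2 change of the 10 members was 0.24 and that of the 8 that passed was 0.38, beside -0.083 over all 13210 genes. With an FPKM ratio over 1.5 as the rule, which 25.3% of the 13210 genes passed upward and 28.5% downward, 4 members were higher and 3 lower, DKK3 being the one added.

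DKK1 was at 104 FPKM in crotonate-treated primed hESCs, against 0.0672 FPKM in untreated ones. It stood at rank 17 of the rises among 13210 genes, with a log2 change of 6.61. Its level was above that of 97.2% of genes with crotonate and of 20.7% without. Behind the untreated value lay 4 reads, and 5438 behind the treated one. The FPKM ratio of 1540.5 therefore had an exact 95% interval of 601 to 5656, which covers counting error only. DKK1 overlaps exons of the antisense gene PRKG1-AS1, and the counting is not stated to have used strand. PRKG1-AS1 is not listed for the primed and endodermal columns, so its part in the DKK1 values there could not be tested.

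DKK2, which can block or, in some settings, support WNT signalling, was at 3.53 FPKM with crotonate and at 0.00834 FPKM without. Its log2 change was 2.17, and 373 reads stood against 1 read, an FPKM ratio of 423 with an interval of 75.4 to 16738. DKK2 thus rose like DKK1, but its treated level was far below that of DKK1. DKK3 was at 20.2 FPKM in treated and 13.0 FPKM in untreated hESCs, with 0.60 as its log2 change, short of a call. USP47, whose exons overlap those of DKK3 on the other strand, was at 15.3 and 8.11 FPKM in the same columns, and its part in the DKK3 values was not tested. DKK4 was listed at 0 with crotonate and at 0.0371 FPKM without, where 1 read lay behind the value, so no fold is given.

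SFRP2 fell to 5.15 FPKM in crotonate-treated primed hESCs, against 267 FPKM in untreated ones. With a log2 change of -5.44 and an FPKM ratio of 0.0193, it ranked 6 among the falls. SFRP2 was above 52.0% of genes with crotonate and above 99.2% without, where it was the most abundant antagonist. SFRP1 was at 24.1 FPKM in treated and 209.6 FPKM in untreated hESCs, a log2 change of -3.07 and rank 110 among the falls. Within the SFRP subfamily SFRP1 was the most abundant gene with crotonate and SFRP2 without. SFRP5 fell to 0.292 FPKM, against 2.14 FPKM in untreated hESCs (log2 change -1.28, FPKM ratio 0.136), with 16 and 133 reads behind the values.

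FRZB went against SFRP1, SFRP2 and SFRP5, which share its Frizzled-like domain. It was at 6.89 FPKM with crotonate and 1.39 FPKM without, a log2 change of 1.72 and an FPKM ratio of 4.95. SFRP4 was at 0.243 FPKM in treated hESCs and listed at 0 in untreated ones, so no fold is given. The smallest read number that fits the treated value was 3, and the true number can be a multiple of it. WIF1 was at 1.66 FPKM in treated and 1.38 FPKM in untreated hESCs, and its log2 change of 0.16 was far below the threshold.

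**Figure D1:**
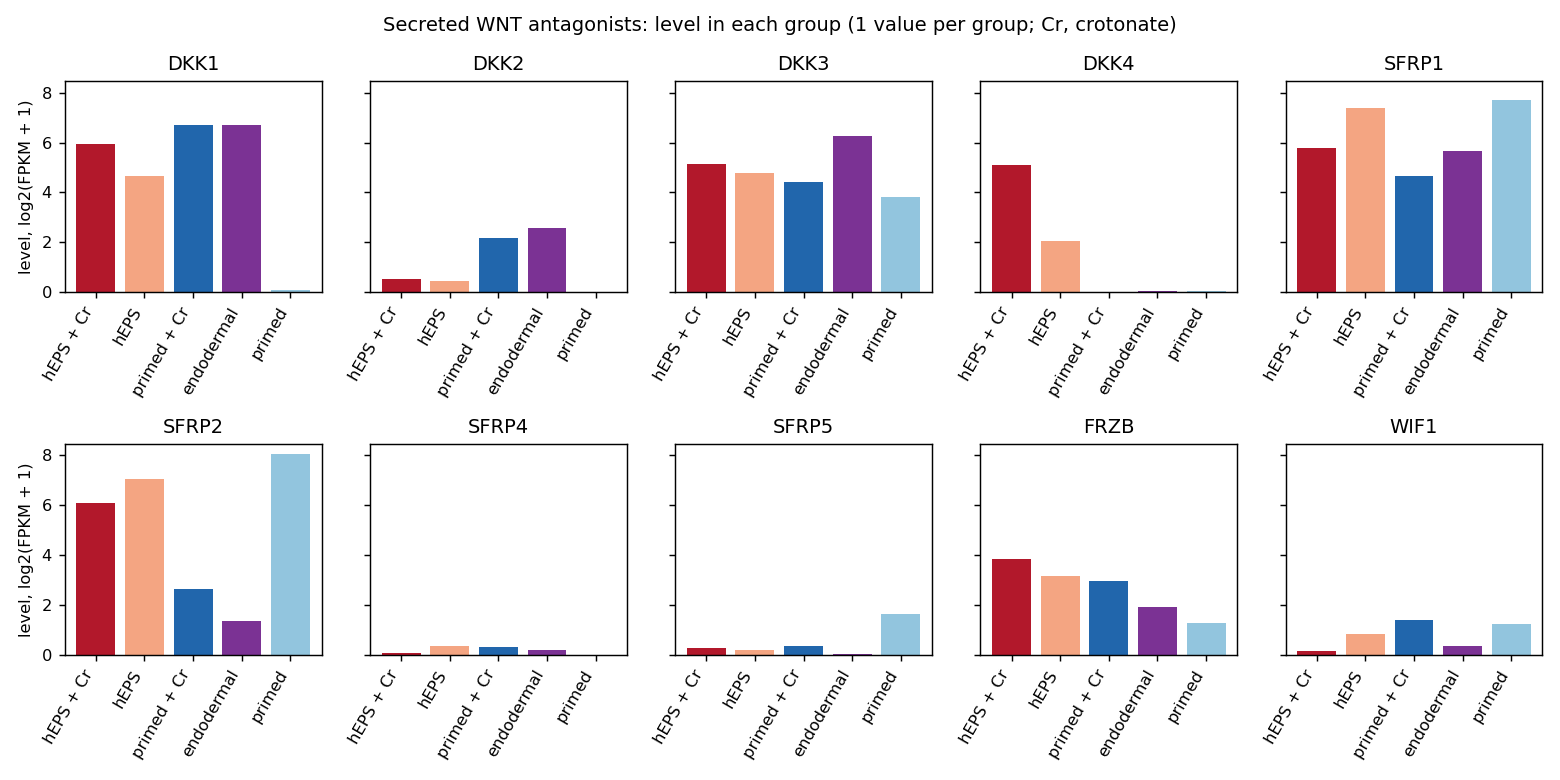
Levels of the 10 genes as log2(FPKM + 1), 1 bar per group, with 1 value per group and no error bar. DKK1 stands at 6.71 in crotonate-treated primed hESCs, 6.69 in endodermal cells and 0.094 in untreated primed hESCs, SFRP2 at 2.62, 1.36 and 8.06 in the same groups, and DKK4 is above 1 in the hEPS groups only.

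In hEPS cells the same genes were at other starting levels, and the log2 changes with crotonate were smaller in size apart from those of DKK4 and WIF1, the second of which was below 1 FPKM. DKK1 and DKK4 were called higher, SFRP1 lower, and DKK3, SFRP2 and FRZB neither. Among all 14161 genes that reached 1 FPKM in the hEPS table, 8.42% were called higher and 3.02% lower. The 6 members that passed the filter did so in both columns, and DKK2, SFRP4, SFRP5 and WIF1 did not pass. The median log2 change was 0.070 over the 10 members and 0.52 over the 6 that passed, beside -0.092 over all genes. An FPKM ratio over 1.5 was passed upward by 20.1% and downward by 18.1% of genes, and by 3 and 2 members, with FRZB and SFRP2 added.

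DKK4 was at 33.0 FPKM in crotonate-treated and 3.19 FPKM in untreated hEPS cells. The log2 change of 3.02, an FPKM ratio of 10.3, placed it at rank 38 of the rises among 14161 genes. It was the largest change of a member in hEPS cells, in a gene with 0 or 1 reads in each of the other groups. DKK1 was at 60.3 FPKM with crotonate and at 24.1 FPKM without, a log2 change of 1.29 and an FPKM ratio of 2.50. Untreated hEPS cells thus had DKK1 above 82.8% of the 26731 genes of their table. In untreated primed hESCs it was above 20.7% of 19198 genes, a different gene set. PRKG1-AS1 was at 0.267 FPKM in treated and 0.491 FPKM in untreated hEPS cells. DKK3 was at 33.9 and 26.2 FPKM (log2 change 0.36), with USP47 at 14.2 and 15.1 FPKM. DKK2 stayed below 1 FPKM, at 0.454 FPKM with crotonate and 0.376 FPKM without.

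SFRP1 fell to 53.4 FPKM in crotonate-treated hEPS cells, against 168 FPKM in untreated ones, a log2 change of -1.63 and rank 90 among the falls. SFRP2 was at 66.5 FPKM in treated and 133 FPKM in untreated hEPS cells. Its log2 change of -0.99 lay just short of the threshold and its FPKM ratio was 0.499, so that a pseudocount of 0.1 in place of 1, which gave -1.001, called it lower. SFRP1 and SFRP2 therefore had the same sign of change in both cell states. FRZB was at 13.2 FPKM with crotonate and 7.83 FPKM without, and its log2 change of 0.69 and FPKM ratio of 1.69 were not enough for a 2-fold call. SFRP5 was at 0.205 FPKM with crotonate and 0.155 FPKM without. The smallest read number that fits was 1 in each column, so the 2 values differ by scaling alone. SFRP4 was at 0.0396 FPKM with crotonate and 0.285 FPKM without, and 2 reads against 19 gave an FPKM ratio of 0.139 with an exact 95% interval of 0.0157 to 0.576. WIF1 was at 0.105 FPKM with crotonate and 0.794 FPKM without, and 1 read against 10 gave a ratio of 0.132 with an interval of 0.0030 to 0.927. Both intervals lay below 1, but they rest on the smallest read numbers that fit, which can be too low. They cover counting error only, and both genes were under the 1 FPKM needed for a call.

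**Figure D2:**
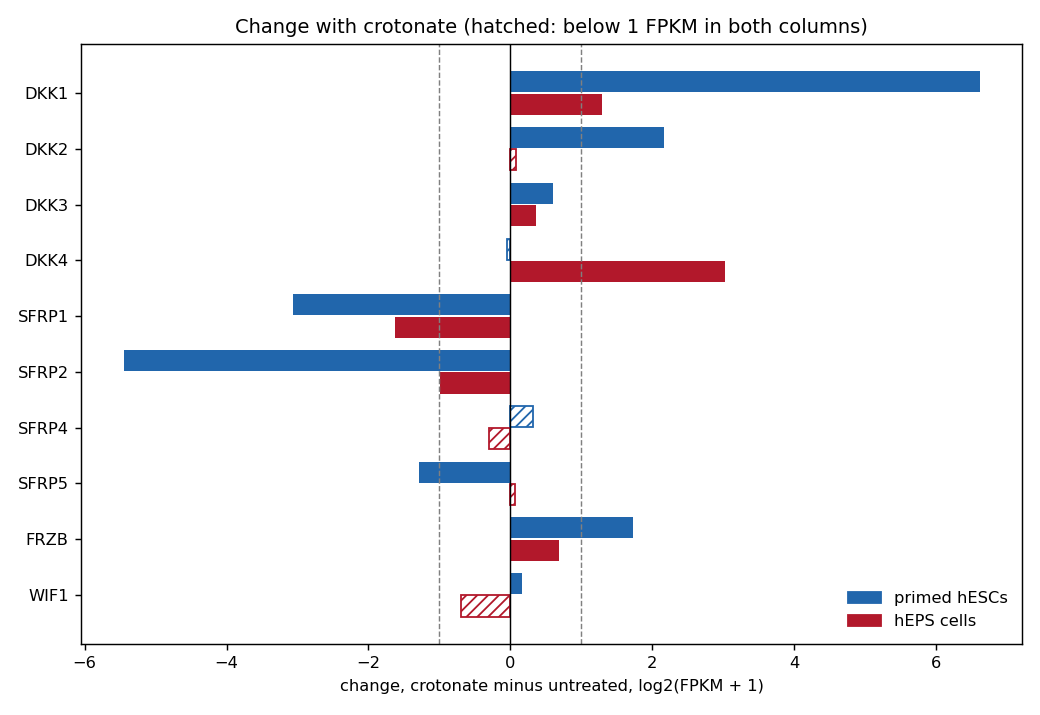
Change of each gene with crotonate, crotonate-treated minus untreated on the log2(FPKM + 1) scale, in primed hESCs (blue) and hEPS cells (red). Dashed lines mark a 2-fold change and hatched bars are genes below 1 FPKM in both columns. SFRP1 passes the line on the lower side in both cell states and DKK1 on the upper side in both, while SFRP2 passes it in primed hESCs at -5.44 and lies at -0.99 in hEPS cells.

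The 2 comparisons stand in separate tables and do not share control values. DKK1 had log2 changes of 6.61 in primed hESCs and 1.29 in hEPS cells, SFRP1 of -3.07 and -1.63, SFRP2 of -5.44 and -0.99, and FRZB of 1.72 and 0.69. All 4 had the same sign in both states and the larger size in primed hESCs, and whether the changes differ between the states was not tested, since there are no replicates. DKK2 and SFRP5 were called in primed hESCs only and DKK4 in hEPS cells only, and in the other state these genes were below 1 FPKM with and without crotonate. DKK1 and SFRP1 were the members called in both states, each with the same sign, and DKK1 could only be called higher in primed hESCs. The share of all genes called in 1 state, in both or in opposite directions was not counted, so this pattern has no background beside it.

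**Figure D3:**
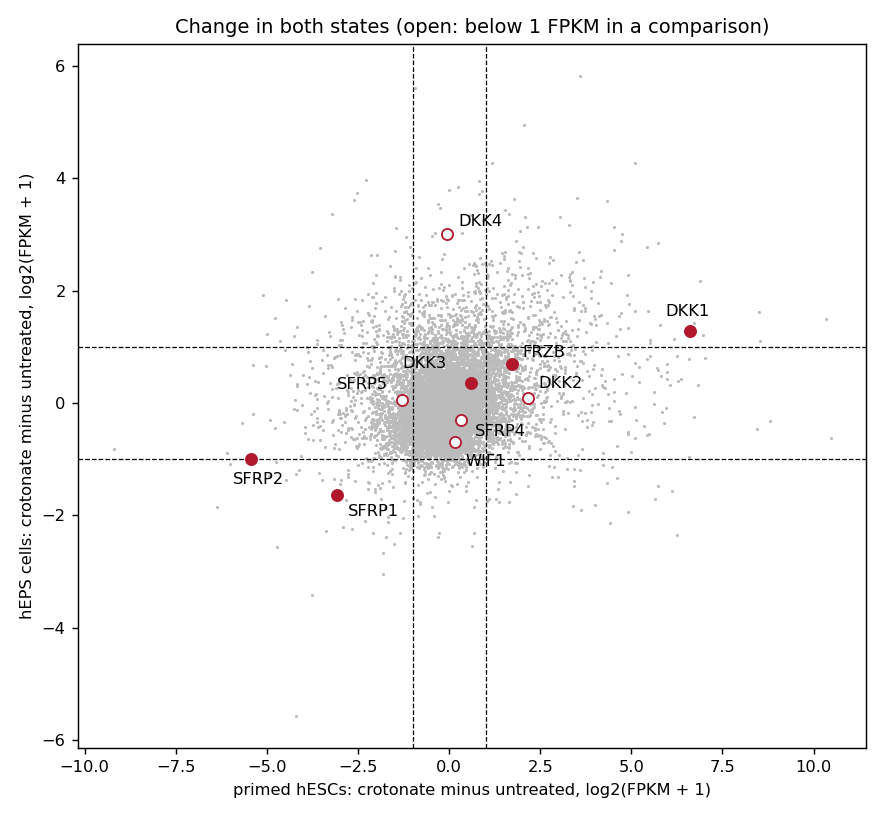
Change with crotonate in primed hESCs (horizontal) and in hEPS cells (vertical), crotonate-treated minus untreated on the log2(FPKM + 1) scale. Grey points are genes with at least 1 FPKM in both comparisons, red points are the antagonists, open where a gene was below 1 FPKM in a comparison, and dashed lines mark a 2-fold change. DKK1 lies at 6.61 and 1.29 and SFRP2 at -5.44 and -0.99, and DKK4 stands apart on the vertical axis at 3.02.

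Levels in separate tables are set side by side here without a fold, because it is not stated whether the tables were normalized together. DKK1 was at 102 FPKM in endodermal cells, at 104 FPKM in crotonate-treated primed hESCs and at 60.3 FPKM in crotonate-treated hEPS cells. The order of its levels was crotonate-treated primed hESCs, endodermal cells, crotonate-treated hEPS cells, untreated hEPS cells and untreated primed hESCs, and with no spread the neighbours in this order cannot be said to differ. DKK2 was at 4.90 FPKM in endodermal cells (631 reads) and 3.53 FPKM in crotonate-treated primed hESCs, and was below 1 FPKM in the other 3 groups. DKK3 was at 75.7 FPKM in endodermal cells and between 13.0 and 33.9 FPKM elsewhere. USP47 was at 13.5 FPKM in endodermal cells and 8.11 FPKM in untreated primed hESCs, and its part in the DKK3 level was not tested. SFRP1 was at 49.6 FPKM and SFRP2 at 1.58 FPKM in endodermal cells. SFRP2 had its lowest value there and its highest in untreated primed hESCs, and SFRP1 its lowest value in crotonate-treated primed hESCs. FRZB was at 2.76 FPKM in endodermal cells, and WIF1 at 0.290, SFRP4 at 0.133, DKK4 at 0.0345 and SFRP5 at 0.0300 FPKM were all below 1 FPKM.

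The make-up of the family was also compared within each column, where the scaling of a table has no part. The 4 DKK genes took 48.9% of the summed FPKM of the family in crotonate-treated hEPS cells and 14.8% in untreated hEPS cells. They took 76.8% in crotonate-treated primed hESCs, 77.1% in endodermal cells and 2.65% in untreated primed hESCs. The contrast was smaller in shares of summed log2(FPKM + 1), where the DKK genes took 50.8% with crotonate and 38.6% without in hEPS cells, and 51.9% in crotonate-treated primed hESCs, 62.0% in endodermal cells and 16.6% in untreated primed hESCs. Of the summed FPKM, DKK1 alone took 62.5% in crotonate-treated primed hESCs and 0.0136% in untreated ones. In endodermal cells DKK1 took 43.1% and DKK3 31.9%. SFRP2 took 25.5% and SFRP1 20.5% in crotonate-treated hEPS cells, against 36.6% and 46.1% in untreated hEPS cells. The summed level of the 10 genes was 261 FPKM in crotonate-treated and 364 FPKM in untreated hEPS cells, and 166 FPKM in crotonate-treated primed hESCs, 237 FPKM in endodermal cells and 494 FPKM in untreated primed hESCs. The sum was thus lower with crotonate in both states while its DKK part was higher, at 128 FPKM against 53.9 FPKM in hEPS cells and 127 FPKM against 13.1 FPKM in primed hESCs.

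**Figure D4:**
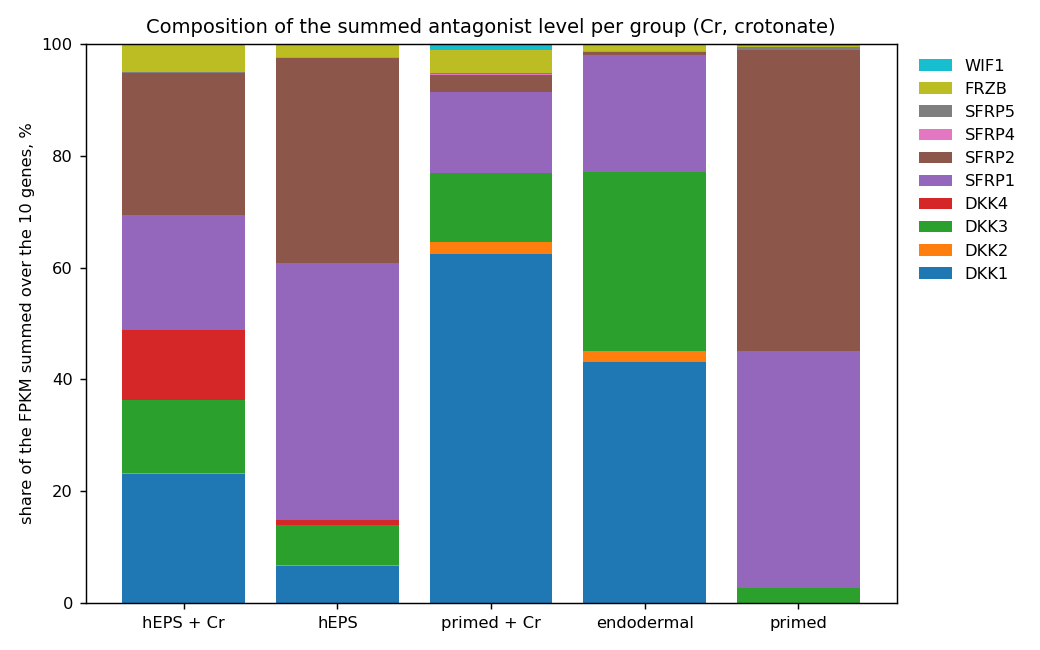
Share of each gene in the FPKM summed over the 10 antagonists, in percent, 1 bar per group. The DKK genes at the bottom of the bars take 48.9% and 14.8% in hEPS cells with and without crotonate, 76.8% in crotonate-treated primed hESCs, 77.1% in endodermal cells and 2.65% in untreated primed hESCs.

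For DKK1, SFRP1 and SFRP2 the genes with the most similar levels were sought among 18427 genes present in all tables, by the largest difference of log2(FPKM + 1) over the 5 groups. GATA4, a factor of endoderm and heart mesoderm, lay closest to DKK1, with no group differing by more than 0.69. It was at 97.8 FPKM in crotonate-treated and 20.9 FPKM in untreated hEPS cells, and at 123 FPKM in crotonate-treated primed hESCs, 99.9 FPKM in endodermal cells and 0.0482 FPKM in untreated primed hESCs. The receptor gene CNTFR (1.20) and IGFBP5, which binds insulin-like growth factors (1.47), came next. L1TD1, an RNA-binding protein of hESCs (0.76), CRABP1, which binds retinoic acid (1.34), and TDGF1, the coreceptor of Nodal (1.35), were closest to SFRP2, and L1TD1 and TDGF1 are among the pluripotency markers above. UGP2 (0.64) and SEPHS1 (0.71), genes of metabolic enzymes, and the receptor gene ERBB2 (0.79) were closest to SFRP1. These are descriptions over 5 values, not measures of association.

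The genes of proteins through which the antagonists act were measured beside them. For the counts of the lists below, the shares over all genes that reached 1 FPKM were 13.9% higher and 12.7% lower in primed hESCs. In hEPS cells these shares were 8.42% and 3.02%. Of the 4 genes of DKK-binding membrane proteins, KREMEN1 and LRP5 were called higher and none lower in primed hESCs, and KREMEN1 and KREMEN2 higher and none lower in hEPS cells, where quantile normalization left 1 of these calls. KREMEN1 was at 11.3 FPKM with crotonate and 2.67 FPKM without in primed hESCs, and at 5.93 and 2.43 FPKM in hEPS cells. KREMEN2 was at 21.4 FPKM in treated and 4.72 FPKM in untreated hEPS cells. LRP5 was at 35.4 FPKM with crotonate and 16.8 FPKM without in primed hESCs, a log2 change of 1.03, just past the threshold. LRP6 was called in neither state, at 9.58 and 15.5 FPKM in primed hESCs and 29.3 FPKM in both hEPS columns. LRP5 and LRP6 are also among the 15 receptor genes that follow, so the LRP5 call is counted in both lists. Of 15 genes of Frizzled and other WNT receptors, 7 were called higher and 2 lower in primed hESCs, and 1 higher and 2 lower in hEPS cells, where an FPKM ratio over 1.5 gave 4 higher and 5 lower. All 15 passed the filter in both states, but in primed hESCs FZD10 did so through the crotonate value alone and FZD5 through the untreated value alone. FZD5 was called in opposite directions, at 0.393 FPKM with crotonate and 15.2 FPKM without in primed hESCs, and at 116 and 16.2 FPKM in hEPS cells.

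Of the 19 WNT ligand genes, 8 passed the filter in primed hESCs, with 5 called higher and 1 lower, and 14 in hEPS cells, with 1 called higher and 5 lower. Of those called in primed hESCs, WNT2 and WNT11 passed through the crotonate value alone and WNT9A through the untreated value alone. In hEPS cells WNT7B passed through the untreated value alone. A gene that passed through 1 value alone could be called in 1 direction only. WNT5A, a ligand that acts largely without beta-catenin, was at 43.5 FPKM with crotonate and 1.14 FPKM without in primed hESCs. WNT1 was at 2.16 FPKM in treated and 22.2 FPKM in untreated hEPS cells, and WNT3A at 3.73 and 18.1 FPKM, both ligands of the beta-catenin branch. Among the R-spondins, which raise WNT signalling, with their LGR receptors and the ligases ZNRF3 and RNF43 (9 genes), 6 passed the filter in primed hESCs. Of these, 4 were called higher and none lower, and RSPO2, RSPO3 and LGR5 passed through the crotonate value alone. All 9 passed in hEPS cells, with 2 called higher and 3 lower, and RSPO2 passed there through the untreated value alone. RSPO3 stood at 76.7 FPKM with crotonate and 0.0132 FPKM without in primed hESCs, and at 4.06 and 24.7 FPKM in hEPS cells, so its calls were opposite in the 2 states.

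Of 10 feedback and target genes of beta-catenin, a group of roles that DKK1 and DKK4 share, 8 passed the filter in primed hESCs. There 6 were called higher and none lower. LEF1, SP5 and TNFRSF19 passed through the crotonate value alone, so they could be called in 1 direction only. All 10 passed in hEPS cells, with 1 called higher and 1 lower, where an FPKM ratio over 1.5 gave 4 higher and 2 lower. BAMBI was at 694 FPKM with crotonate and 8.15 FPKM without in primed hESCs, TNFRSF19 at 41.1 and 0.208 FPKM and SP5 at 2.77 and 0.312 FPKM. LEF1, a DNA-binding partner of beta-catenin, was at 62.3 FPKM with crotonate and 0.183 FPKM without in primed hESCs, and at 6.94 and 21.1 FPKM in hEPS cells, where it was called lower. The gene called higher there was NKD2, a feedback inhibitor inside the cell, at 14.2 FPKM with crotonate and 4.12 FPKM without. In hEPS cells DKK1, DKK4 and NKD2 were thus called higher and LEF1 lower. Of 10 genes of other extracellular inhibitors, 8 passed the filter in primed hESCs, with 3 called higher and 1 lower. In hEPS cells 9 passed, with 1 called higher and none lower. CER1, which in frog embryos binds WNT, Nodal and BMP ligands, was that 1 gene, at 1962.5 FPKM with crotonate and 39.0 FPKM without. APCDD1, a membrane inhibitor, and NOTUM, which strips the lipid from WNT ligands, were at 16.3 and 1.88 FPKM in crotonate-treated primed hESCs, against 4.06 and 0.0958 FPKM in untreated ones. IGFBP4 was called higher there too, at 120 FPKM against 49.7 FPKM, and TRABD2A was the 1 gene called lower, at 0.282 against 3.39 FPKM. NOTUM passed the filter through the crotonate value alone and TRABD2A through the untreated value alone. Of 11 intracellular components, AXIN1 and TCF7L1 were called lower in primed hESCs and none was called in hEPS cells.

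**Figure D5:**
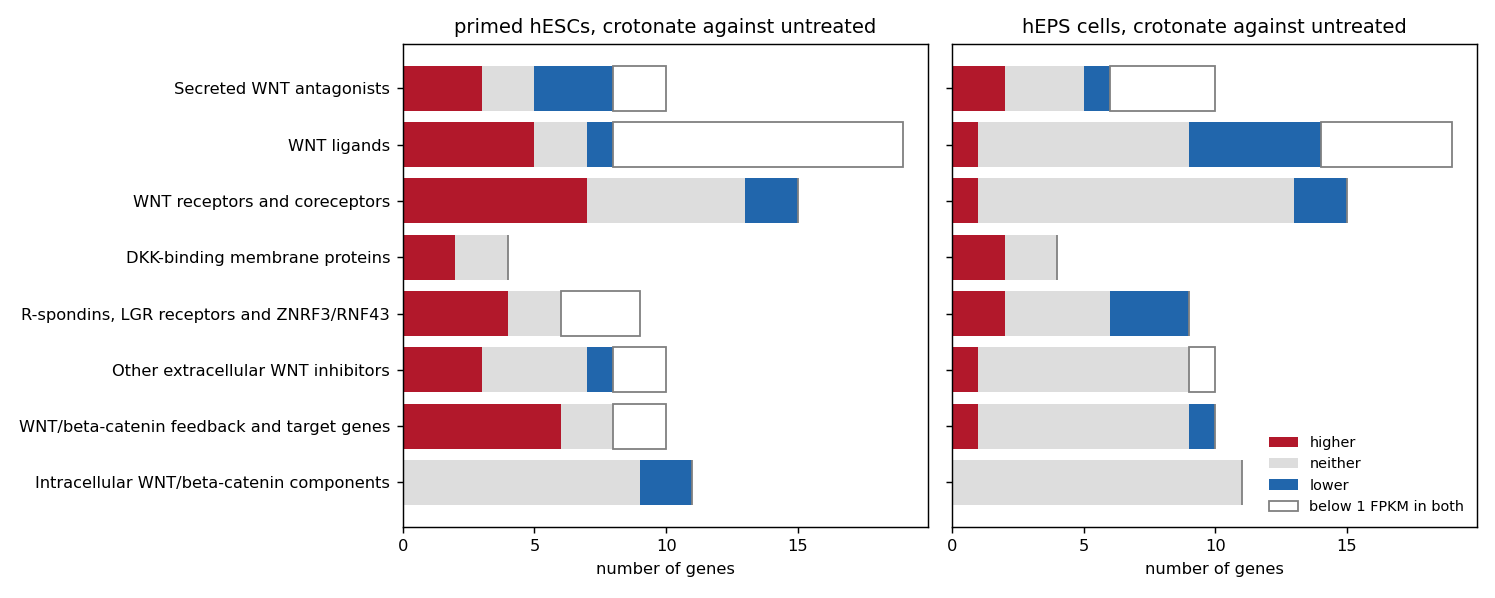
Number of genes of each list called higher, neither or lower with crotonate, or below 1 FPKM in both columns, in primed hESCs (left) and hEPS cells (right). The antagonists have 3 higher and 3 lower in primed hESCs and 2 higher and 1 lower in hEPS cells, and the 10 feedback and target genes have 6 higher and 0 lower in primed hESCs and 1 of each in hEPS cells.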

How the data were processed

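Bulk mRNA levels of 10 samples in 5 groups were analysed, as 1 value per group. According to the methods and the submitters' processing notes, oligo(dT)-enriched RNA was sequenced as paired-end reads, and TopHat 1.3.2 with Cufflinks 1.1.0 served for mapping to hg38. Read counting used HTSeq 0.6.0 as well as StringTie 1.3.0, and TMM scaling preceded the FPKM step. FPKM is the unit of all 3 deposited tables, which had 0 further columns of values.

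Changes were differences of log2(FPKM + 1) within a table, called at 2-fold with at least 1 FPKM in 1 column. This scale understates changes of genes with low values. The planned limma fit needed replicate columns and could not be run. Symbols turned into dates (28 in the hEPS table, 27 in the others) were left out, and TBXT was found under its synonym T. Read steps were taken from values below 0.2 FPKM, and intervals were exact binomial ones at 95%. The members and gene lists were chosen with earlier results of these data known, so nothing here is independent support for a pattern. All 10 members are named, with up to 4 called genes of largest change per pathway list and the 3 nearest genes for DKK1, SFRP1 and SFRP2. LRP6 was named beside its list after its values were seen, and WNT2 and WNT9A because they passed the filter through 1 value alone. The calling rule and the read steps were tested on simulated data. Alternatives were a pseudocount of 0.1, no filter, quantile normalization, summed entries of a symbol, an FPKM ratio over 1.5 and shares of summed log2 values. The work was done in Python 3.11.15 with scipy 1.17.1, pandas 2.3.3 and numpy 2.4.6, and figures were drawn with matplotlib 3.10.9.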

Additional observations from a re-analysis of the deposited data

How the results depend on the processing

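With quantile normalization no called member lost its call or changed sign. The other 4 alternatives to the calling rule (a pseudocount of 0.1, no filter, an FPKM ratio over 1.5, summed entries) cannot remove a call by their construction and say nothing about stability. The 4 calls gained were DKK3 in primed hESCs and FRZB in hEPS cells with an FPKM ratio over 1.5, and SFRP2 in hEPS cells with that ratio and with a pseudocount of 0.1, under each of which the hEPS members called lower were 2 in place of 1. Without the filter the members had a median log2 change of 0.24 (primed) and 0.070 (hEPS), in place of 0.38 and 0.52, because all 10 members then enter. As a share of summed log2(FPKM + 1), which gives low genes more weight, the DKK genes took 50.8% in crotonate-treated and 38.6% in untreated hEPS cells, and 51.9% in crotonate-treated and 16.6% in untreated primed hESCs. Over all genes, the ratio rule called 3336 higher and 3768 lower in primed hESCs, in place of 1834 and 1674, and 2841 and 2566 in hEPS cells, in place of 1193 and 428. With a pseudocount of 0.1, 787 genes were lower in hEPS cells. Counts of the pathway lists moved by over 1.5 times in 19 of 140 cases. In primed hESCs these were counts of genes called lower, under the FPKM ratio for receptors (5 in place of 2), DKK-binding proteins (1 in place of 0), R-spondins (1 in place of 0) and intracellular components (4 in place of 2), and for other inhibitors 3 with a pseudocount of 0.1, 2 with quantile normalization and 4 with the ratio, in place of 1. In hEPS cells a pseudocount of 0.1 gave 2 in place of 1 called higher for ligands, receptors, other inhibitors and feedback genes. There the ratio gave 2 higher for ligands, 4 higher and 5 lower for receptors, 3 higher and 1 lower for other inhibitors and 4 higher and 2 lower for feedback genes, and quantile normalization left 1 of 2 DKK-binding genes called higher. No symbol was repeated, so summing entries changed nothing. No paired analysis was possible because the tables hold 1 column per group with no replicate number, and leaving out replicates was not run for the same reason. Low values limit DKK4 and SFRP4 in primed hESCs and SFRP5 in hEPS cells. The smallest read numbers that fit these values were 3 or lower, and the true numbers can be a common multiple of them. Counting intervals do not cover the spread between cultures.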
